A study of Rattus norvegicus with 6 samples.

Results

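Matricellular proteins are secreted into the extracellular matrix, where they bind cells, growth factors and structural fibers and modulate how cells attach and respond. The genes described here are Tnc and 9 other members of this class, namely Thbs1, Thbs2, Thbs3, Postn, Sparc, Tgfbi, Fbln1, Fbln2 and Fbln5. They were found by symbol in the deposited table, where all 10 were present among 18420 genes, and all 10 passed the filter on low counts that left 13250 genes for testing. The list was chosen by gene function with the estimated counts of this comparison already known, so the members' differences between the groups are a description and support nothing.

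In cartilage and other connective tissues, many of these genes are low at rest and are induced by injury, mechanical load and TGF-β. Tenascin C, encoded by Tnc, is a large hexameric glycoprotein that loosens cell attachment to fibronectin and marks cartilage under repair or inflammation. Thrombospondins bind CD47 and integrins, and thrombospondin 1 can release TGF-β from its latent form.

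RNA-seq was made from primary chondrocytes of male Sprague-Dawley rats (wild type, 180 to 220 g) in the third passage. The TNF-α group (n = 3 libraries) was given TNF-α at 10 ng/mL over 6 h, and the TNF-α+NFL group (n = 3) received the same and then NFL, the freeze-thaw lysate of the Nanofat fraction of rat adipose tissue, for 24 h. As described, treatment lasted 6 h in one group and 30 h in the other, and NFL and the later time cannot be told apart. Untreated cells were not analysed here. The study describes its replicates as biological and independent, but neither it nor the labels say whether they came from separate animals or cultures, so each test measures the spread between these libraries.

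The group names are those of the deposited labels, and every direction rests on them. In the study's own table of changed genes, with M and T in its headings read as TNF-α and as TNF-α+NFL, each over untreated cells, Tnc, Itgb1 and Vcl stand in the opposite order. The letters are not explained there, so the groups are called the libraries labelled TNF-α and TNF-α+NFL. Libraries held between 19344893 and 19725135 estimated counts. On the first principal component, with 26.1% of the variance, TNF-α replicates 1 and 3 lay at opposite ends (21.2 and -22.7), and the other libraries lay between -6.96 and 5.93. TNF-α replicate 1 also stood apart in single genes: Fn1, the gene with the most counts in each library, took 4.46% of its counts against 3.41% to 3.59% in the other libraries, and it also held 40 counts of the macrophage gene Csf1r against 1 to 7 in the others.

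Most defining cartilage genes were at low levels in these cultures, with 9 of 11 chondrocyte markers below the mean level of Fbln1 in both groups. FPKM, the authors' value scaled by transcript length and by the mapped reads of the library, was used to compare levels between genes. Its means in the libraries labelled TNF-α, then TNF-α+NFL, were 2.25 and 2.34 for Sox9, 2.61 and 2.78 for Acan, and 3.95 and 4.63 for Col2a1. Comp and Hapln1 were similarly low, and Matn3, Col9a1, Matn1 and Cnmd were below 1. The 2 exceptions were Prg4 and Col11a1. Prg4, the lubricin gene of superficial cartilage, was at 582 and 531, and Col11a1, a minor cartilage collagen, at 215 and 251. Of genes shared with fibroblasts, Col1a1 was at 624 and 655, Thy1 at 1255 and 1341, Lum at 101 and 91.1, and Dcn at 35.8 and 35.4.

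With edgeR's quasi-likelihood test over all genes, 0 of 9 tested chondrocyte markers passed an adjusted p of 0.05, 2 had an unadjusted p under 0.05, and limma-voom and the DESeq2 Wald test each called 1. Of 7 fibroblast markers 0 passed, 2 were under 0.05 unadjusted, and neither other tool called any. Over all tested genes these shares were 0.611% adjusted and 11.1% unadjusted with edgeR, 0.634% with limma-voom, and 2.44% of the 6057 genes to which DESeq2 gave an adjusted p. Without TNF-α replicate 1, Col11a1 and Col1a1 passed with higher values and Lum with lower values under the TNF-α+NFL label, in a fit that called 3.43% of all genes higher and 3.51% lower. CPM, a count scaled to a common, TMM-normalized library size, was used within a gene. Endothelial and blood markers summed to less than 1 CPM in each library. Adipocyte markers summed to 8.27 to 8.86 CPM and 8.71 to 10.1 CPM in the respective groups, nearly all of it Fabp4, with Adipoq, Plin1, Lep and Cidec near 0. Macrophage markers summed to 22.8 to 28.2 and 20.0 to 25.9 CPM, mostly Cd68. Csf1r was at 2.09 CPM in TNF-α replicate 1 and at most 0.354 CPM elsewhere, and Ptprc had 7 counts there and at most 2 elsewhere.

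Of 5 pericyte markers, which summed to 1096 to 1289 and 1173 to 1245 CPM, 4 were tested. Only Mcam passed with edgeR, where 0.611% of all tested genes did. Mcam rose from a mean CPM of 30.3 to 39.2 under the TNF-α+NFL label (log2 fold change 0.37, edgeR adjusted p = 0.0056). Pdgfrb, which supplied most of the sum, was at 1053 and 1095 CPM (edgeR adjusted p = 0.82). It passed without TNF-α replicate 1, in a fit that called 3.43% of all genes higher and 3.51% lower. Notch3 was at 3.97 and 4.88 CPM without overlap (edgeR adjusted p = 0.48), and Cspg4 went the other way, at 74.5 and 63.1 CPM without overlap (edgeR adjusted p = 0.22). Over all tested genes, 8.66% were separated in the direction of Notch3 and 8.17% in that of Cspg4. The fifth, Rgs5, was near 0 and not tested. The part of these cell types in the results below was not tested.

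Promoter sequences are shown for the member with the smallest adjusted p (Tnc), the most abundant thrombospondin (Thbs1) and the member with the largest difference in the opposite direction (Tgfbi). RefSeq's promoter table (GRCr8) held 8 of the 10 members, Thbs2 and Fbln1 not among them. The counts were made on another build and no measured value was placed by these coordinates. Each line gives the 250 bases before the start of the gene, 5′ to 3′ on the strand of the gene, with matches to the searched motifs in capitals. They lie at chr5:82476132-82476381 (minus strand), chr3:125510000-125510249 (plus strand) and chr17:7990114-7990363 (minus strand), in that order.
Tnc: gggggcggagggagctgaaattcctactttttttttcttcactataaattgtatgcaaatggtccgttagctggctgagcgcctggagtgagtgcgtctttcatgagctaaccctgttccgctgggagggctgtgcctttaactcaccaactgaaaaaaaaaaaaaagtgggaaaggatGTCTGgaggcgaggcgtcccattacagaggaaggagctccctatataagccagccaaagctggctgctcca
Thbs1: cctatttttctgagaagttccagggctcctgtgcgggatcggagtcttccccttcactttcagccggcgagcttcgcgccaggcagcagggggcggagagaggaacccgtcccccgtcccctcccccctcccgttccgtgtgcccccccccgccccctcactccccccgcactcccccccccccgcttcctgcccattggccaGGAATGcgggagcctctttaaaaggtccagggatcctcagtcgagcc
Tgfbi: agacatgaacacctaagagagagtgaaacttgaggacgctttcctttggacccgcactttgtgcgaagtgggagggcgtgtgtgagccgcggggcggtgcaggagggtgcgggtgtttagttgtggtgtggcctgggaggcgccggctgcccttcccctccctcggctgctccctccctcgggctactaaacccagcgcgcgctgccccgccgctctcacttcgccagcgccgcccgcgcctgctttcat

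Each motif was searched on both strands over the 250 bases before and the 50 after the start. The SMAD motif GTCTG was found in 5 of the 8 members (Tnc, Postn, Sparc, Fbln2 and Fbln5) and in 50.1% of the 33469 promoters of the table. The TEAD motif CATTCC was found in Thbs1, Sparc and Fbln5, and in 14.2% of all promoters. The CArG box, which binds SRF, the AP-1 motif TGANTCA and the NF-κB motif were found in none of the 8 windows, and in 1.64%, 7.33% and 7.51% of all promoters. The capitals in Tnc mark its only match, which begins 71 bases before the start, and those in Thbs1 a TEAD match on the opposite strand, 47 bases before it. The members therefore share no one of these motifs, and a match in such a short window is a description of letters, not of binding.

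Level per transcript length differed widely between the members. Sparc, which encodes a collagen-binding glycoprotein also called osteonectin, had the highest level, at 2819.8 ± 76.8 (SD, n = 3) in the libraries labelled TNF-α and 3007 ± 37.3 in those labelled TNF-α+NFL, and ranked 12 among all 18420 genes by its mean. Thbs1 followed at 1677 ± 115 and 1912 ± 96.8, a rank of 21. Thbs2, the close relative of Thbs1, was at 561 ± 27.6 and 610.4 ± 23.8. Postn, which encodes periostin, a partner of collagen fibrils and of tenascin C, was at 431 ± 18.3 and 476 ± 18.4, and Tnc at 269 ± 11.9 and 356 ± 3.62. These 5 genes had the highest levels of the set.

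The fibulins, which tie elastic fibers and basement membranes together, were lower and uneven. Fbln5, needed for elastic fiber assembly, was at 124 ± 8.69 and 129 ± 2.93 FPKM, and Fbln2 at 98.8 ± 3.50 and 96.9 ± 3.98. Fbln1 was at 9.21 ± 0.235 and 8.85 ± 0.660. Thbs3, a pentameric thrombospondin of cartilage and bone, was at 6.43 ± 0.139 and 6.94 ± 0.165. Tgfbi, the nearest relative of Postn in the list, was scarcest, at 2.65 ± 0.212 and 2.02 ± 0.244, a rank of 10234. The order of the 10 genes was the same in each of the 6 libraries, with no overlap between neighbors, and deposited TPM values gave the same order. The estimated counts were fractional in all 6 libraries for Fbln1, so part of its reads was assigned between genes or copies.

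**Figure D1:**
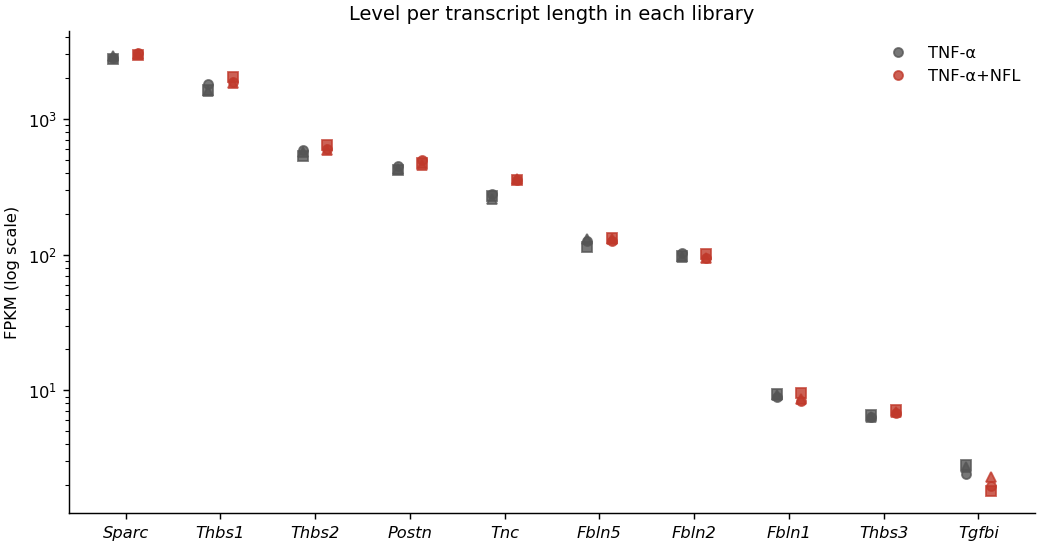
FPKM (log axis) of each of the 10 genes in each library, with gray for TNF-α and red for TNF-α+NFL, and a circle, square and triangle for replicates 1, 2 and 3. Genes are ordered by their mean, from Sparc to Tgfbi, and no 2 neighbors overlap.

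Tnc had the clearest difference between the groups. Its CPM was 1865, 1773 and 1693 in replicates 1, 2 and 3 of the libraries labelled TNF-α and 2325, 2333 and 2382 in those labelled TNF-α+NFL. Each of the latter was above each of the former, with a wide gap between the groups. The means were 1777 ± 85.9 (SD, n = 3) and 2346 ± 30.7 (SD, n = 3), a fold of 1.32 and a log2 fold change of 0.40 (standard error 0.041). The log2 fold change stayed between 0.37 and 0.44 when each library was left out in turn, and was 0.36 when each library's trend with transcript length was removed, Tnc being the longest transcript of the set at about 6592 bases. In bulk RNA, a larger share of cells that express a gene and more RNA per cell cannot be told apart.

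Of the thrombospondins, Thbs1 was at a CPM of 6658, 5861 and 5809.5 in the libraries labelled TNF-α and 6766, 7363 and 6715 in those labelled TNF-α+NFL. The groups did not overlap, but TNF-α replicate 1 came close to the lowest TNF-α+NFL library. Its log2 fold change came to 0.19 (standard error 0.057). With 1 library left out it ranged from 0.14 to 0.25, the latter without TNF-α replicate 1 (standard error 0.036). Thbs2 was at 3432, 3063 and 3283 CPM, then 3486, 3698 and 3429 CPM. Here the groups overlapped, since TNF-α replicate 1 was above TNF-α+NFL replicate 3, and the log2 fold change was 0.12 (standard error 0.047). Thbs3 was at 20.4, 20.9 and 20.1 CPM, then 21.4, 22.6 and 22.04 CPM, with a log2 fold change of 0.11 (standard error 0.059). The Thbs3 groups did not overlap, but its lowest library held 390 counts, for which counting error alone is 5.06%. The FPKM ratio of Thbs1 to Thbs2 lay between 2.82 and 3.094 in the libraries labelled TNF-α and between 3.095 and 3.18 in the others, so that replicate 1 of one group met replicate 1 of the other.

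Postn and Sparc, both binders of collagen, had slightly higher values under the TNF-α+NFL label. Postn was at 1466, 1332 and 1359 CPM in the libraries labelled TNF-α and 1583, 1530.3 and 1469 CPM in the others. TNF-α replicate 1 nearly met TNF-α+NFL replicate 3, and the log2 fold change was 0.14 (standard error 0.044). Sparc was at 5790.4, 5562 and 5887 CPM, then 6182, 6058 and 6102 CPM. Its groups did not overlap, with a log2 fold change of 0.089 (standard error 0.037), a fold of 1.06. The FPKM ratio of Tnc to Postn lay between 0.605 and 0.645 in the libraries labelled TNF-α and between 0.717 and 0.788 in the others, so the difference in Tnc was larger than that in Postn within these libraries.

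Tgfbi went the other way. It encodes an adhesion protein related to periostin that was named for its induction by TGF-β. Its CPM was 6.60, 7.59 and 7.33 in the libraries labelled TNF-α and 5.31, 4.92 and 6.21 in those labelled TNF-α+NFL. Each of the latter was below each of the former, with a log2 fold change of -0.39 (standard error 0.12). The libraries held only 96 to 150 counts of this gene, and counting error alone is 10.2% at the lowest of these, so its size is far less certain than that of Tnc.

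The fibulins differed little. Fbln1 was at 23.7, 24.8 and 24.3 CPM in the libraries labelled TNF-α and 22.2, 25.0 and 22.8 CPM in the others (log2 fold change -0.056, standard error 0.063). Fbln2 was at 446, 420.1 and 417 CPM, then 411, 440.4 and 411 CPM (log2 fold change -0.023, standard error 0.043). Fbln5 was at 308, 273 and 313 CPM, then 302, 317 and 311 CPM (log2 fold change 0.057, standard error 0.050). In each of these 3 genes the groups overlapped, and single libraries decided the size. With 1 library left out, the log2 fold change of Fbln1 ranged from -0.11 to -0.019, the latter without TNF-α+NFL replicate 1. That of Fbln5 was 0.00091 when TNF-α replicate 2 was left out and 0.096 when replicate 3 was. The sign for Fbln2 turned to 0.0092 without TNF-α replicate 1.

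**Figure D2:**
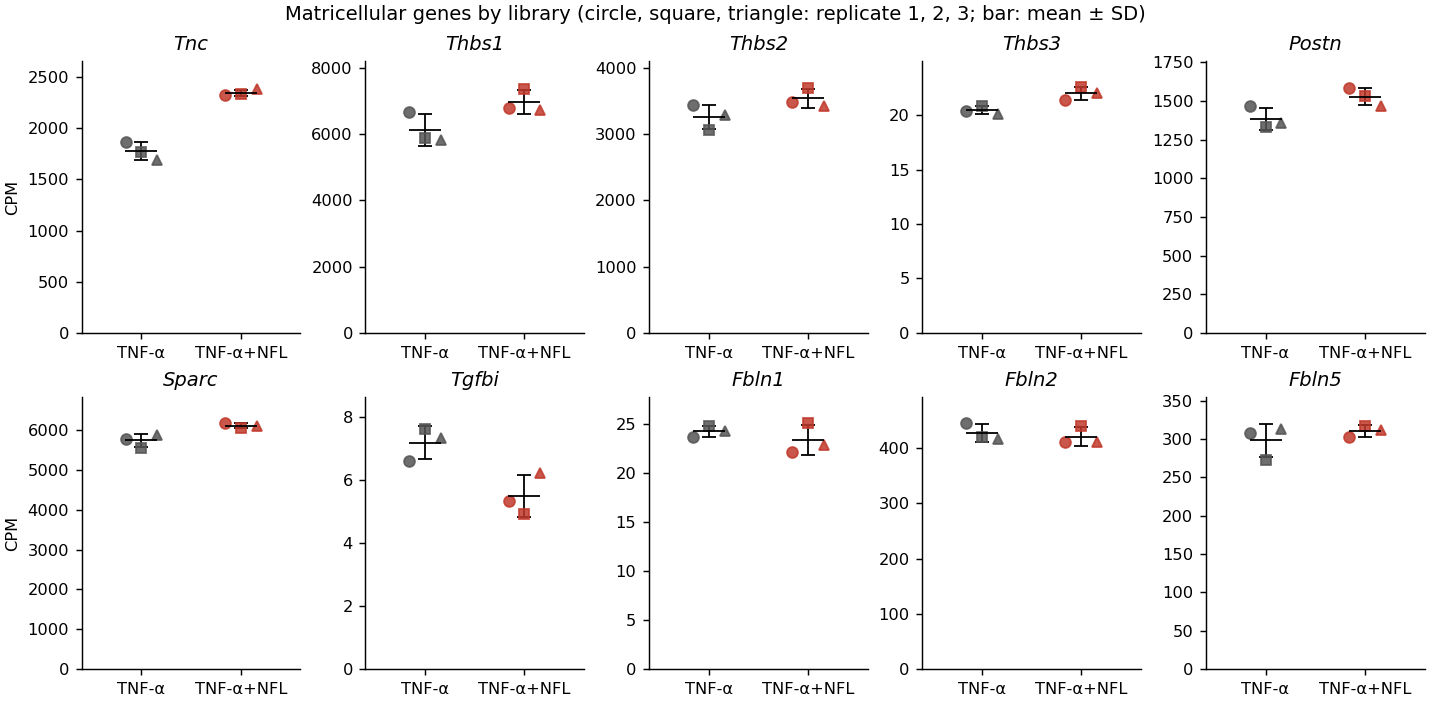
CPM (linear axes from 0) of the 10 genes in the libraries labelled TNF-α (gray) and TNF-α+NFL (red), with a circle, square and triangle for replicates 1, 2 and 3 and a bar for the mean ± SD (n = 3). The red points lie above the gray ones in Tnc, Thbs1, Thbs3, Postn and Sparc, below them in Tgfbi, and among them in the other 4 genes.

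Across the set, 7 members had a positive and 3 a negative log2 fold change, with a median of 0.098, against -0.0035 over all 13250 genes tested. Only Tnc was past an adjusted p of 0.05 in edgeR's quasi-likelihood test over all genes, that is 1 of 10 members, where 0.611% of all tested genes were past it, 0.408% higher and 0.204% lower. The groups were fully separated in 6 members, 5 with higher values under the TNF-α+NFL label and 1 with lower values. Over all tested genes, such a separation was found for 8.66% and 8.17% in these directions. Since the members were listed with this contrast known, nothing is read from these counts. Tnc stayed past the threshold whichever of the 6 libraries was left out. Without TNF-α replicate 1 there were 5 higher members past it (Tnc, Thbs1, Thbs2, Postn and Sparc) and 1 lower (Tgfbi), and the percentages over all genes rose too, to 3.43% higher and 3.51% lower.

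**Figure D3:**
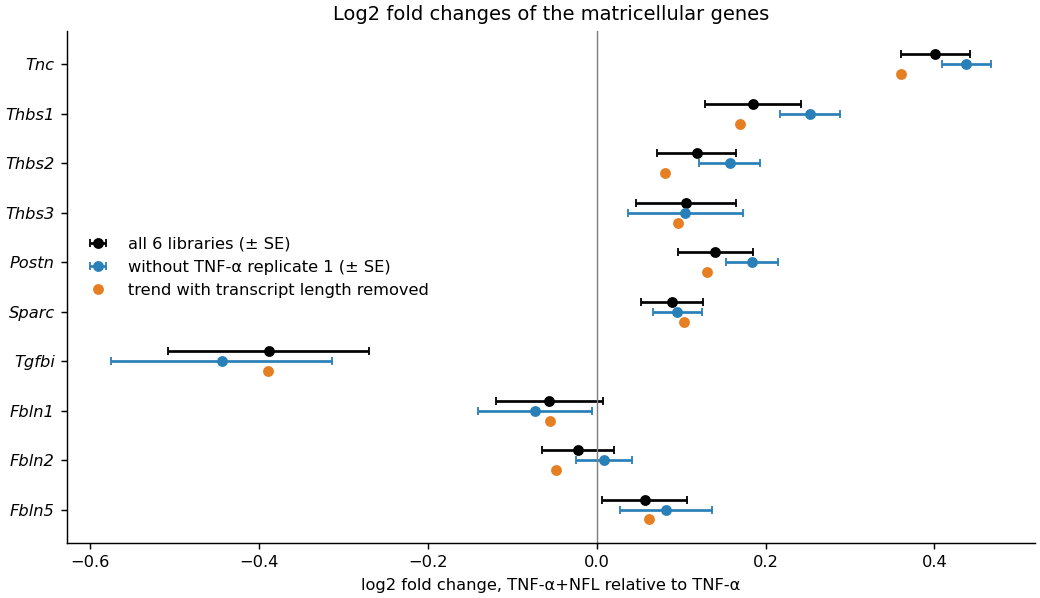
Log2 fold change of each member, TNF-α+NFL relative to TNF-α, from all 6 libraries (black, ± SE), without TNF-α replicate 1 (blue, ± SE) and with the trend with transcript length removed (orange, no error drawn). Tnc lies between 0.36 and 0.44 in the 3 fits and Tgfbi between -0.44 and -0.39, and Fbln2 changes sign.

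Together the members took 1.84% to 1.98% of the estimated counts in the libraries labelled TNF-α and 2.09% to 2.18% in the others. Thbs1 and Sparc supplied the largest counts of these. The spread within a group was also unequal. The coefficient of variation of Tnc was 4.83% in the libraries labelled TNF-α and 1.31% in the others, that of Sparc 2.90% and 1.03%, and that of Tgfbi 7.20% and 12.1%.

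The genes whose log2 CPM ran most like that of Tnc over the 6 libraries were Vcl, Polb, Celf1, Zbtb1 and Sort1, with Pearson correlations between 0.994 and 0.999. The libraries fall into 2 groups, so these values mostly carry the difference between the groups, and no p is given for genes picked in this way. Vcl encodes vinculin, which links integrin adhesions to actin, and was at a mean CPM of 692 and 798 in the respective groups, a log2 fold change of 0.20. Sort1, which encodes the sorting receptor sortilin, was at 48.5 and 57.6, a log2 fold change of 0.25. The log2 fold changes of Polb, Celf1 and Zbtb1 were 0.17, 0.12 and 0.14. Among the members, Thbs3 was closest to Tnc with a correlation of 0.900 and Tgfbi was farthest with -0.861.

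Other matricellular genes, written down from general knowledge but with earlier results of these data known, did not pass the threshold. Of 26 listed genes 25 were in the table and 20 were tested, of which 0 passed with edgeR. Without adjustment 9 were under 0.05, as were 11.1% of all tested genes. With limma-voom 0 were called and with the DESeq2 Wald test 1, Ccn2. These tools called 0.634% and 2.44% of all genes to which they gave an adjusted p. The median log2 fold change was 0.025, with 11 positive and 9 negative. Ccn2, the connective tissue growth factor gene and a common target of TGF-β and YAP, was at 4893 ± 129.6 CPM (SD, n = 3) in the libraries labelled TNF-α and 5479.5 ± 96.7 CPM in the others (a log2 difference of 0.16 with a standard error of 0.037, edgeR adjusted p = 0.075). Its relative Ccn1 was at 982 ± 32.0 and 1073 ± 18.1 CPM (log2 fold change 0.13, edgeR adjusted p = 0.19). Spp1, which encodes osteopontin, was at 965 ± 34.7 and 881 ± 20.3 CPM (log2 fold change -0.13, edgeR adjusted p = 0.21).

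The other thrombospondins lay among the scarcer members in level. Comp, a cartilage thrombospondin, was at 10.9 ± 0.686 and 10.3 ± 1.44 CPM (log2 fold change -0.077, edgeR adjusted p = 0.85), and its log2 fold change was -0.0048 without TNF-α+NFL replicate 2 and -0.20 without TNF-α+NFL replicate 3. Thbs4, at a mean FPKM of 20.5 over the 6 libraries, lay between Fbln2 and Fbln1, and had 69.2 ± 1.79 and 63.9 ± 3.72 CPM (log2 fold change -0.11, edgeR adjusted p = 0.42). Tnn, a tenascin named here after its values were seen, was at 121, 104 and 95.4 CPM in the libraries labelled TNF-α and 125, 116 and 113 CPM in the others, which overlapped (log2 fold change 0.15, edgeR adjusted p = 0.61). With 1 library left out its log2 fold change ranged from 0.073 to 0.25, the latter without TNF-α replicate 1 (edgeR adjusted p = 0.0038). In that fit, 6 of the 20 genes were past 0.05 with higher and 3 with lower values under the TNF-α+NFL label, where 3.43% and 3.51% of all tested genes were. Ccn1, Ccn2, Spp1 and Tnn were among these 9, and Comp and Thbs4 were not.

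Of the receptors that bind these proteins, 22 were in the table and 21 tested. Itgb1, the integrin β1 chain shared by many matrix receptors, was the only 1 past the threshold with edgeR, where 0.611% of all genes were. The DESeq2 Wald test called 2 receptors, Itgb1 and Itga8, and limma-voom called 1. These tools called 2.44% and 0.634% of all genes to which they gave an adjusted p. Without adjustment 6 were under 0.05, as were 11.1% of all genes. The CPM of Itgb1 was 2409, 2548 and 2551 in the libraries labelled TNF-α and 2929.8, 2854 and 2869.9 in those labelled TNF-α+NFL, without overlap. The counts of Itgb1 were fractional in all 6 libraries, so part of its reads was shared with other genes or copies. Its log2 fold change came to 0.20 (standard error 0.037; edgeR adjusted p = 0.028). It was past the threshold in 1 of the 6 fits that left out a library, that without TNF-α replicate 1, and its edgeR adjusted p was 0.0997 with the replicate number as a block. Itgav, the αv chain that pairs with several β chains, was at 803 ± 57.0 and 813 ± 13.8 CPM (log2 fold change 0.018, edgeR adjusted p = 0.94). Its sign was negative without TNF-α replicate 3 and with the length trend removed. Cd44, a hyaluronan receptor that also binds osteopontin, was at 499 ± 10.9 and 536 ± 6.53 CPM (log2 fold change 0.10, edgeR adjusted p = 0.28). Its edgeR adjusted p was 0.041 without TNF-α replicate 1 and 0.32 to 0.63 in the other fits that left out 1 library. Cd47, the thrombospondin receptor, was at 311 ± 0.422 and 315 ± 2.70 CPM (a log2 difference of 0.018 with a standard error of 0.035, edgeR adjusted p = 0.91). The FPKM of Cd47 went the other way, at 98.8 ± 0.531 and 95.6 ± 0.566, so its direction depends on the measure. The list had a median of 0.018, with 11 positive and 10 negative.

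Partners in elastic fibers and the fibronectin matrix were compared as a list of 15 genes, all tested. With edgeR 0 of these passed (0.611% of all genes) and 1 was under 0.05 unadjusted (11.1% of all genes). Neither limma-voom nor the DESeq2 Wald test called any, where they called 0.634% and 2.44% of all genes given an adjusted p. The median was 0.015, with 10 positive and 5 negative. Fn1, which encodes fibronectin, a ligand of tenascin C, was at 45131, 35328 and 33968 CPM in the libraries labelled TNF-α and 34285, 35912 and 35094 CPM in the others. The excess was in TNF-α replicate 1 alone, and the log2 fold change turned from -0.12 (standard error 0.12) to 0.019 without it. Fbn1, which encodes fibrillin 1, was at 1109 ± 147 and 1065 ± 62.5 CPM, and its log2 fold change likewise turned from -0.058 to 0.056. Lox, the collagen and elastin crosslinking enzyme, was at 5221 ± 94.4 and 5239 ± 156 CPM. With a log2 fold change of 0.0050 (standard error 0.037), the sign of Lox changed in 3 of the other fits.

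Transcription factors linked to these genes, 15 listed and tested, were not past the threshold either. With edgeR 0 passed (0.611% of all genes) and 3 were under 0.05 unadjusted (11.1% of all genes). Both limma-voom and the DESeq2 Wald test called 0, where they called 0.634% and 2.44% of all genes given an adjusted p. The median was 0.036, with 11 positive and 4 negative. These values are RNA levels and say nothing of the proteins' activity.

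**Figure D4:**
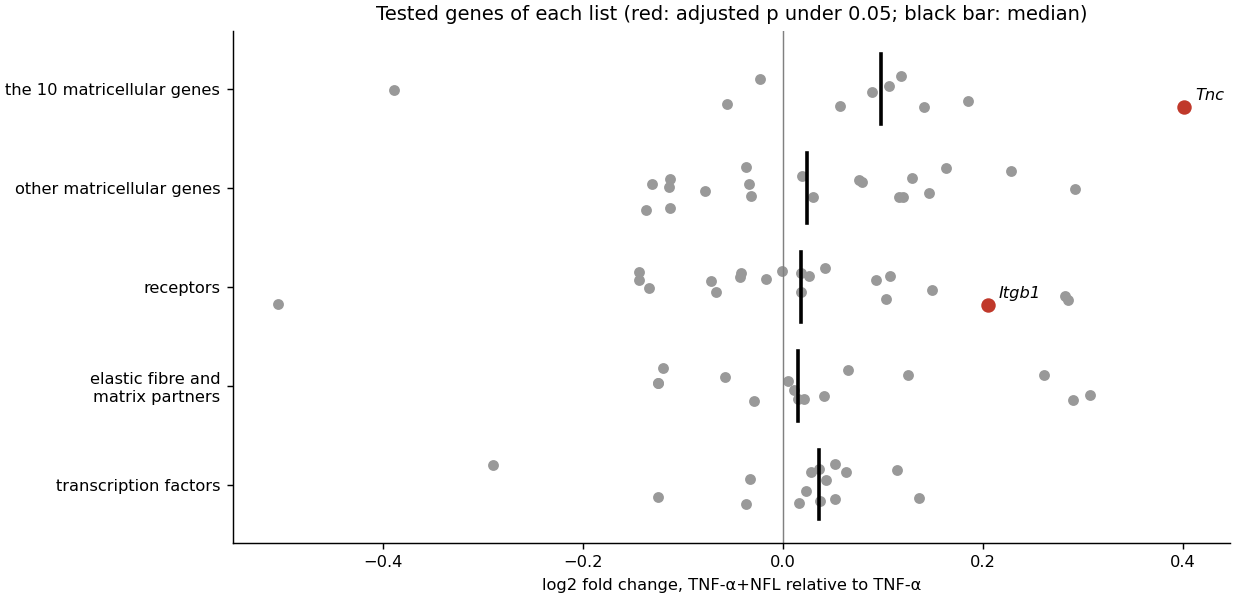
Log2 fold change, TNF-α+NFL relative to TNF-α, of each tested gene of the 5 lists, with red for genes past the edgeR threshold (adjusted p of 0.05) and a black bar for the list's median. Tnc at 0.40 and Itgb1 at 0.20 are the red points, and the medians lie between 0.015 and 0.098.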

How the data were processed

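For every gene the authors deposited an estimated count (not always a whole number), together with FPKM and TPM values for each library, without pooling. Per the labels, mRNA was purified with oligo (dT) beads and sequenced in single reads, and the submitters' processing notes name HISAT2 2.0.4, Bowtie2 2.2.5, RSEM 1.2.12 and Rnor_6.0 without their roles. The annotation is not given in the sources used here. FPKM and TPM served for levels between genes and, with the counts, for transcript length.

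Counts were rounded and compared by edgeR's two-sided quasi-likelihood test (version 4.0.16, R 4.3.3) after filterByExpr and TMM, with robust dispersion and Benjamini-Hochberg adjustment over 13250 genes, with limma 3.58.1 (voom) and DESeq2 1.42.0 as alternatives. Each standard error is the log2 fold change divided by the root of F. The biological coefficient of variation was 6.39%. Replicates differed by 2.70 to 13.7 times counting noise, so each counted as 1 sample. The script was tested on simulated data.

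Members and lists were chosen with earlier results of these data known. Named genes are the members, list genes past an adjusted p of 0.05, 12 list genes set by name, and the 5 genes most like Tnc.

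Promoters came from RefSeq (GRCr8), and protein sequences were not used here.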

Additional observations from a re-analysis of the deposited data

How the results depend on the processing

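The log2 fold change of Tnc had the same sign and was past an adjusted p of 0.05 in every fit run. All 6 libraries gave 54 higher and 27 lower genes. These became 84 and 48 without the low-count filter, 68 and 27 with at least 10 counts in every sample, 95 and 53 with the DESeq2 Wald test, 152 and 78 with the trend with transcript length removed, and 25 and 9 under a replicate block. The labels do not say whether the replicate numbers pair the samples. The deviations of same-numbered libraries had correlations of 0.030, -0.024 and 0.1 over all tested genes. These cannot exclude pairing, since counting noise also weakens them. Leaving out 1 library gave 5 to 460 higher and 0 to 470 lower genes, the most without TNF-α replicate 1 and the fewest without TNF-α+NFL replicate 1.

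Under the replicate block, Itga8 replaced Itgb1 as the receptor past 0.05. The members past 0.05 numbered 2 with the DESeq2 Wald test, Thbs1 being added, and 1 to 6 with 1 library left out. Other matricellular genes numbered 1 with no filter and with DESeq2, 2 with the length trend removed, and 0 to 9 with 1 library left out. Receptors numbered 2 with no filter, with at least 10 counts in every sample and with DESeq2, 3 with the length trend removed, and 0 to 6 with 1 library left out. Matrix partners numbered 1 with the length trend removed and 0 to 1 with 1 library left out, and transcription factors 0 to 1 with 1 library left out. The edgeR fit used above called 81 of all genes. This became 132 with no filter, 95 with at least 10 counts in every sample and 148 with DESeq2. It became 230 with the length trend removed and 34 under the replicate block. Among the fits that left out 1 library, the one without TNF-α replicate 1 gave the most in each list, and it called 3.43% of all genes higher and 3.51% lower.

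Signs changed for Itgav (-0.025 with the length trend removed, -0.021 without TNF-α replicate 3 and up to 0.077 in the other fits that left out 1 library), Lox (-0.027 with the length trend removed, -0.019 to 0.021 with 1 library left out), Fbln2 (-0.056 to 0.0092), Fbn1 (-0.12 to 0.056) and Fn1 (-0.19 to 0.019), the last 3 with 1 library left out. The cause was not tested. Leaving Fn1 out of the counts, a setting chosen after seeing the data, changed the side of the threshold for none of the 26 named genes it could test. Among the members, depth limits Tgfbi most, followed by Thbs3 and Fbln1, and Comp lies between Tgfbi and Thbs3.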
